A study of Arabidopsis thaliana with 82 samples.

Results

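The genes described here are 43 nuclear genes of the Arabidopsis thaliana photosynthetic apparatus: the 4 LHCA and 14 LHCB antenna genes, 11 subunits of photosystem I, 9 subunits of photosystem II, the 4 RBCS genes of the Rubisco small subunit and RCA, the gene of Rubisco activase. They were taken by a list of gene identifiers from the 27416 genes of the deposited table, and all 43 were found in it. They were measured by stranded poly(A) RNA-seq of hypocotyl tissue in 82 libraries, with 2 biological replicates in each of 41 groups. All plants were Col-0 seedlings grown in short days on agar without sucrose, and a cotyledon had been removed from every one of them, intact plants included. In separated plants the hypocotyl was cut across and the top and bottom were left apart; in grafted plants a cut top was joined to the cut bottom of another plant. Tops and bottoms were collected separately at 6, 12, 24, 48, 72, 120, 168 and 240 h, and intact plants at these times and at 0 h. A separated top thus keeps the shoot and a separated bottom the root. How many plants went into a library, and at what hour of the day plants were cut and collected, the labels do not say.

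Antenna proteins bind chlorophyll and pass light energy to the photosystem cores: LHCA proteins serve photosystem I, LHCB1 to LHCB3 form the mobile trimers of photosystem II, and LHCB4 to LHCB6 are its minor antenna, which link the trimers to the core. The core subunits that bind most of the pigment, and the large subunit of Rubisco, are made from chloroplast genes, so nuclear subunits, antenna and small subunits have to be supplied in step with them. These nuclear genes are induced by light through phytochrome, many are gated by the circadian clock, and many are lowered by sugar.

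Levels are given as x, the deposited library-normalised value multiplied by 1 constant so that the median library sums to 1 M. An x of 1 stood for an estimated 5.78 to 22.0 reads, libraries held an estimated 7.56 to 20.2 M reads, and no library listed any of the 43 genes at 0. Values of x depend on transcript length, so they are compared between samples and not between genes. Replicates correlated at r of 0.971 to 0.993 over all genes. The replicates of separated tops at 72 h differed most over the 43 genes, with replicate 1 higher by a median of 1.74 on the log2 scale, and those at 120 h differed by 1.07 with replicate 2 higher. In bulk tissue, fewer green cells and less transcript per cell cannot be told apart. Differences are limma estimates on log2(x + 1) with their standard errors (SE), and a gene is called when its p, adjusted by Benjamini and Hochberg over the 20766 genes tested, is under 0.05. The early window is 6, 12 and 24 h, the middle window 48 and 72 h, and the late window 120, 168 and 240 h, with 6, 4 and 6 libraries a group.

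Promoters of 7 members are shown because these genes carry the contrasts in behaviour described further on. LHCB1.1 (AT1G29920) and LHCB1.3 (AT1G29930) lie side by side in opposite orientation, encode near-identical proteins of the photosystem II trimer and differ at 12 h, as do the photosystem I subunit genes PSAD1 (AT4G02770) and PSAD2 (AT1G03130). LHCB2.3 (AT3G27690) had the highest late difference between grafted and separated tops of all genes tested, RBCS2B (AT5G38420) had the lowest differences between separated tops and bottoms of the RBCS genes, and LHCB4.3 (AT2G40100), an isoform of the minor antenna protein CP29, did not follow the other members. Each sequence runs 5′ to 3′ on the gene's strand from 250 bases before to 50 bases after the annotated start, from RefSeq on TAIR10.1, at chr1:10475920-10476219 (minus strand) for LHCB1.1, chr1:10477635-10477934 (plus) for LHCB1.3, chr4:1230115-1230414 (minus) for PSAD1, chr1:754213-754512 (minus) for PSAD2, chr3:10255656-10255955 (plus) for LHCB2.3, chr5:15382022-15382321 (minus) for RBCS2B and chr2:16745378-16745677 (plus) for LHCB4.3. Capitals mark the G-box CACGTG, the I-box GATAAG, the element CCAATC and the CCA1-binding site AAAAATCT, searched on both strands.
LHCB1.1: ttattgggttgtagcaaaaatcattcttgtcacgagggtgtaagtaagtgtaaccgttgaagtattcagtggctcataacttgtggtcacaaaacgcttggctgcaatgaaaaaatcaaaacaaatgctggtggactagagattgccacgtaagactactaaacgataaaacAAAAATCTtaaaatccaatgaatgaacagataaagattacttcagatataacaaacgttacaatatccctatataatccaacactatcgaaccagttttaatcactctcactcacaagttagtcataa
LHCB1.3: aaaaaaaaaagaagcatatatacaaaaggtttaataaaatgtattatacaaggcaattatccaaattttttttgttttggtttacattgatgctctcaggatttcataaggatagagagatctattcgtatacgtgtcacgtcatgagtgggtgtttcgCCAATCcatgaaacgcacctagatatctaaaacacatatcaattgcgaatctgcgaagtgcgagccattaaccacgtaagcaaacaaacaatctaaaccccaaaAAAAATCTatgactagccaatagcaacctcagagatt
PSAD1: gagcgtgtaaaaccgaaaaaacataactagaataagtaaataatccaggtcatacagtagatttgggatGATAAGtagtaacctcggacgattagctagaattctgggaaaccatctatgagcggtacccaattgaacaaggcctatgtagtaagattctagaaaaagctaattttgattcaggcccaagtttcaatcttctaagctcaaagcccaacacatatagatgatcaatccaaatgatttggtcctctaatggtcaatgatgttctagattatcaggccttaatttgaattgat
PSAD2: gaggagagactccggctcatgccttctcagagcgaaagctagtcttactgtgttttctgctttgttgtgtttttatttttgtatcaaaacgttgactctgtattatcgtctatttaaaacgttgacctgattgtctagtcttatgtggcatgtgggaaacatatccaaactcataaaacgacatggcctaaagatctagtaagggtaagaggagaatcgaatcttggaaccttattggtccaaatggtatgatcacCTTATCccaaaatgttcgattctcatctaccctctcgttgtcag
LHCB2.3: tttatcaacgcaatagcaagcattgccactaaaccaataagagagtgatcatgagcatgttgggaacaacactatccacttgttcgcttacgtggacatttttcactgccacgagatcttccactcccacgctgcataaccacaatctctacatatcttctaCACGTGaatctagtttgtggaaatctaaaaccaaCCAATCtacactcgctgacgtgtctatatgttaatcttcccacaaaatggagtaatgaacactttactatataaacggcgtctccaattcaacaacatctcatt
RBCS2B: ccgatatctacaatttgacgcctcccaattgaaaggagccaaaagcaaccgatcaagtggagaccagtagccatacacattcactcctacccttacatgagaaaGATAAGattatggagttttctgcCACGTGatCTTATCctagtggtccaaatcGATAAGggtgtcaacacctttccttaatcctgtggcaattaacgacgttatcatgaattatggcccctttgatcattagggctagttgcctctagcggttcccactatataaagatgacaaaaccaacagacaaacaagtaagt
LHCB4.3: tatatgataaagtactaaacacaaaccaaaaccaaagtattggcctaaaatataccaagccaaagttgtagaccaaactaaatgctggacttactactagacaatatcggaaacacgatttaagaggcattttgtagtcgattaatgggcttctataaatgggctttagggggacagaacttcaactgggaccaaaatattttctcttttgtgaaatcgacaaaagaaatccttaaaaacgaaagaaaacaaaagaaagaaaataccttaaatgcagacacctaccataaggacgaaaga

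Of the 43 promoters, 20 (46.5%) held an I-box, against 14.6% of 27443 promoters of the same length, and 14 (32.6%) held a G-box, against 7.68%. CCAATC was in 11 of 18 antenna promoters (61.1%), in 16 of all 43 (37.2%) and in 12.3% of all promoters. The CCA1-binding site, a motif first described in an LHCB1 promoter, was in 6 of 43 (14.0%) against 7.88%, and the evening element AAATATCT was in none of the 43 against 5.65%; TATAAA was in 48.8% against 52.1%. LHCB1.1 and LHCB1.3 each held a CCA1-binding site, 78 bases before the annotated start in LHCB1.1 and 13 bases after it in LHCB1.3, and LHCB1.3 also held CCAATC. RBCS2B held 3 I-boxes and a G-box between 146 and 94 bases before the start, the light-responsive arrangement known from RBCS promoters. No match was found in the LHCB4.3 window, which says only that these letters are absent from it. A match is a description of the sequence, and these shares were not tested.

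The levels of different genes were compared in the deposited table that is also normalised to gene length, over the 16 intact libraries other than those at 12 h. RBCS1A (AT1G67090) was highest at 20150 ± 3616 (SD, n = 16) in that table's units, followed by LHCB1.5 at 15786 ± 2534, LHCB1.3 at 13809 ± 3249, PSBR at 9308 ± 1276, RBCS3B at 9049 ± 2177 and LHCA1 at 7244 ± 1452. PSAO (6206 ± 1109) and RCA (5096 ± 1235) were the highest of the photosystem I class and the activase. LHCB2.3 was the 42nd of the 43 at 896 ± 577, and LHCB4.3 the last at 14.3 ± 8.35. Most of the order is not resolved: of the 42 pairs of neighbours, 38 differed by less than the larger of their SDs. Summed over its members, the LHCB class reached 67863, photosystem I 42654, RBCS 36235, photosystem II 33905, LHCA 21484 and RCA 5096. Reads of the LHCB1, LHCB2 and RBCS genes can be shared between near-identical copies, and the labels do not say how such reads were assigned, so the split within these families is uncertain.

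The 43 genes together took a large share of intact tissue and of cut bottoms, and a small one of cut tops. In intact plants their share of a library was 15.8% at 0 h and 11.7% to 16.6% at later times apart from 12 h, when it was 4.76% (means of 2 libraries). In separated bottoms it was 5.84% at 6 h and 14.2% to 17.2% from 24 h on. In separated tops it was 2.35% at 6 h and 3.11% at 24 h, fell to 0.548% at 72 h and 0.428% at 120 h, and stood at 3.66% at 240 h. Grafted tops kept to the values of separated tops until 24 h, when they held 3.66%, and then held 2.32% at 72 h and 5.16% to 5.62% from 120 h on. Grafted bottoms lay between tops and intact tissue at 10.5% at 24 h, 7.68% at 72 h and 6.42% at 240 h. The intact and separated bottom libraries did not overlap with those of either kind of top at any shared time.

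**Figure D1:**
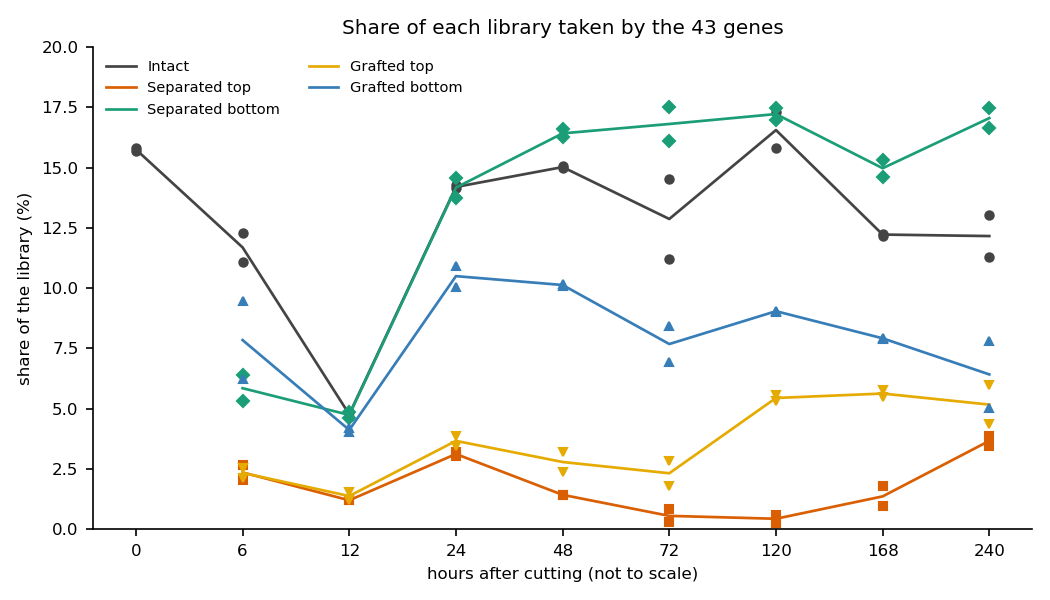
Share of each library (y axis, % of x) taken by the 43 genes against hours after cutting (x axis, not to scale). Points are libraries, lines join group means, and colours are the 5 conditions; separated tops reach 0.428% at 120 h, when separated bottoms are at 17.2%.

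The first pattern is a low at 12 h, when most antenna and photosystem transcripts fell in every condition, while among RBCS transcripts RBCS2B in intact tissue alone passed the test. The only collection times that are not multiples of 24 h are 6 and 12 h, so time after cutting and time of day cannot be told apart in the cut plants. Intact plants, whose hypocotyls were not cut but which had lost a cotyledon, had the low at 12 h as well. Its cause was not tested. LHCB2.2 (AT2G05070), a trimer protein, had x of 2356 and 1436 at 6 h in the 2 intact libraries, 4.05 and 8.17 at 12 h, and 4541 and 4011 at 24 h. The 12 h libraries lay far below all 4 others, and the difference from the mean of 6 and 24 h was −8.69 ± 0.39 (SE, limma adjusted p = 1.26e-22), the lowest of all 20766 genes tested. LHCB2.1 (−8.48 ± 0.37), LHCB2.3 (−8.45 ± 0.48) and LHCB1.1 (−7.55 ± 0.42) fell almost as far.

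Over the 43 members, 39 were called lower at 12 h in intact tissue and none higher, where 19.0% of all genes tested were called lower; the members' median difference was −2.07 and that of all genes 0.02. All 4 LHCA genes (median −2.30), 13 of 14 LHCB genes (−3.74), all 11 photosystem I genes (−2.36) and all 9 photosystem II genes (−1.60) were called lower. RBCS1A, which encodes the most abundant small subunit, had 11849 and 12047 at 6 h, 11580 and 11062 at 12 h and 16742 and 13057 at 24 h, so that its 12 h values lay just under those at 6 h and its difference was −0.23 ± 0.32 (adjusted p = 0.63). Among the RBCS genes RBCS2B was called lower (−1.41 ± 0.41; adjusted p = 0.107 and 0.089 without intact replicate 1 or 2), and RCA was lower as well (−1.50 ± 0.27). The difference between the antenna and the small subunit genes was not tested.

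Close relatives differed in how far they fell. LHCB1.3, whose promoter is printed above beside that of LHCB1.1, had 5763 and 4345 at 12 h against 12420 to 16278 at 6 and 24 h, a difference of −1.51 ± 0.38 (adjusted p = 0.063 without intact replicate 2), whereas LHCB1.1 went from 3280 to 5882 at 6 and 24 h down to 46.6 and 13.2. PSAD2, one of 2 genes for the stromal subunit that docks ferredoxin, went from 875 to 1396 down to 29.0 and 31.4 (−5.20 ± 0.33), and PSAD1 from 1875 to 2654 down to 376 and 343 (−2.71 ± 0.27). PSAH2 (−3.90 ± 0.27) and PSAH1 (−1.44 ± 0.19), for a subunit at the docking site of the mobile antenna, showed the same kind of split. The differences between relatives at 12 h were not tested themselves.

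The cut tissues repeated the 12 h low. In comparisons added after the data were seen, 35 members were called lower in separated tops (background 6.94%) and 33 in their bottoms (17.2%). In grafted plants 31 were lower in tops (5.95%; 19 without grafted top replicate 2) and 36 in bottoms (12.9%; 23 without grafted bottom replicate 1), and the 4 medians were −1.31, −1.38, −1.3 and −1.37. No RBCS gene was called in any of the 4 (limma); at an unadjusted p under 0.05, 2 were higher in each kind of top and 0 passed in the bottoms, and the class medians were 0.61, 0.08, 0.76 and −0.41 in that order. LHCB4.3 was the exception: it was called higher at 12 h in each of the 4 cut tissues, by 0.90 to 1.11, and had 0.43 ± 0.20 in intact tissue (adjusted p = 0.0837). In intact tissue 7 of 10 clock genes were called lower and 3 higher at 12 h, among them the morning gene CCA1 (−5.17 ± 0.39) and the evening gene ELF4 (3.22 ± 0.26), and 13 of the 14 tested genes in a list of 15 of chlorophyll synthesis were called lower (median −2.33). None of 11 chloroplast-encoded partner genes was called at 12 h (limma; 0 at an unadjusted p under 0.05; median 0.16).

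**Figure D2:**
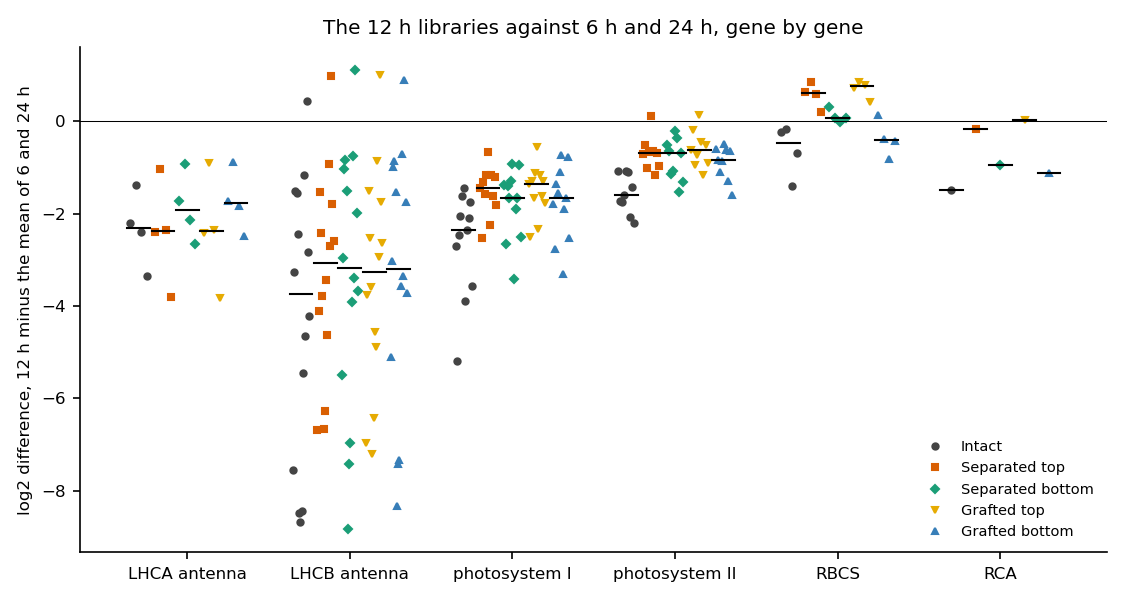
Log2 difference of the 12 h libraries from the mean of the 6 and 24 h libraries (y axis) for each of the 43 genes, by class (x axis) and condition (colour and marker). LHCB genes reach −8.69 in intact tissue, while the RBCS genes lie much nearer 0 in all conditions.

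The second pattern is the low level in cut tops, with separated bottoms as the other extreme. LHCA1 (AT3G54890), an inner antenna protein of photosystem I, ranged from 162 to 1087 (median 791) in the 6 early separated-top libraries and from 774 to 5164 (median 1844) in separated bottoms. These overlapped in the early window, through the 12 h libraries of separated bottoms. In the 4 middle libraries it ranged from 81.8 to 500 (median 355) against 4817 to 6792 (6279), and in the 6 late ones from 68.9 to 1104 (330) against 5606 to 7896 (7530), with no overlap in either. The differences were −1.98 ± 0.20, −4.51 ± 0.25 and −4.46 ± 0.20 (adjusted p = 4.52e-12, 2.32e-21 and 8.66e-25).

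The Rubisco genes were low in separated tops over the same windows. RBCS1A ranged from 153 to 980 (median 675) in separated tops and from 19296 to 25266 (22043) in separated bottoms in the middle window, a difference of −5.44 ± 0.26 that compares with −2.24 ± 0.21 early and −4.54 ± 0.21 late. RCA, which frees Rubisco from inhibitory sugar phosphates, ranged from 200 to 615 (531) against 19878 to 26661 (23408), and its differences were −2.95 ± 0.18, −5.75 ± 0.22 and −4.28 ± 0.18. RBCS2B had the largest differences of its class, −3.75 ± 0.27, −7.16 ± 0.34 and −5.67 ± 0.27. RBCS genes and RCA were called lower in separated tops in all 3 windows without exception, 5 of 5, with medians of −2.85, −6.01 and −4.54. The medians were −1.98, −4.91 and −4.45 for the 18 antenna genes and −1.77, −4.67 and −4.31 for the 20 photosystem genes, and the differences between classes were not tested.

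Photosystem subunits and antenna moved with them. The middle-window differences were −5.05 ± 0.24 for PSAO, a photosystem I subunit near the docked antenna, −4.67 ± 0.19 for PSBR, a subunit next to the oxygen-evolving complex, and −4.08 ± 0.26 for LHCB1.5. Over the 43 members, 42 were called lower in each window, where 31.6% (early), 29.4% (middle) and 30.2% (late) of all genes tested were called lower. The members' medians were −1.92, −4.91 and −4.44 beside medians of 0.08, 0.26 and 0.25 for all genes. Libraries of the 2 tissues did not overlap for 23 members in the early window and for 42 in the middle and late windows. Overlap was not counted over all genes, so these numbers describe the members only.

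Within classes the early difference varied. Among antenna genes it ran from −1.2 ± 0.18 for LHCB6 (CP24) to −2.68 ± 0.18 for LHCA4, leaving out LHCB4.3. Among photosystem genes it ran from −1.23 ± 0.18 for PSAH2 to −3.13 ± 0.18 for PSAN, a lumenal subunit that helps plastocyanin dock, and within photosystem II from −1.57 ± 0.16 for PSBQA to −3.05 ± 0.20 for PSBO2, both of the oxygen-evolving complex. In the middle window the lowest difference of this comparison among all 20766 genes belonged to a member: LHCB1.4 (AT2G34430) ranged from 0.324 to 28.4 (median 11.9) in separated tops and from 4314 to 6324 (6038) in separated bottoms, a difference of −9.30 ± 0.52.

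**Figure D3:**
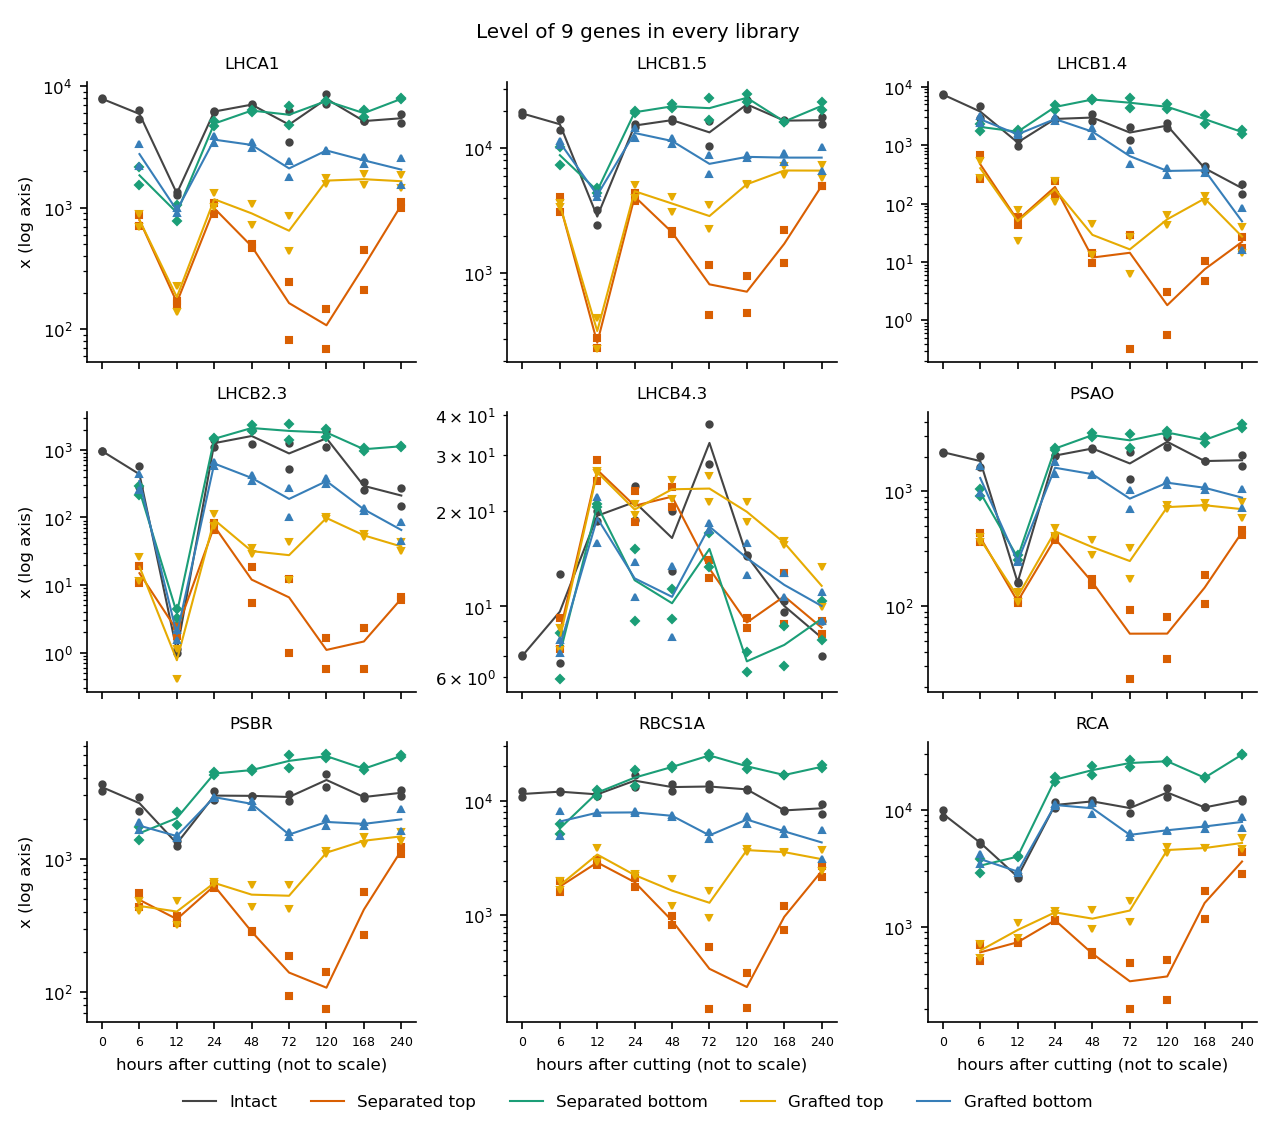
Level x (y axis, log scale) of 9 members in every library against hours after cutting (x axis, not to scale), with lines through group means and colours for the 5 conditions. LHCA1, PSAO, PSBR, RBCS1A and RCA dip in separated tops at 72 to 120 h and return in part by 240 h, and LHCB4.3 stays between 5.91 and 37.5 throughout.

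The gap between separated tops and bottoms widened up to 72 and 120 h and then narrowed. Which of these times had the widest gap is not resolved, as separated-top replicates differed there by medians of 1.74 and 1.07. The median top-minus-bottom difference over the 43 members was −1.35 at 6 h and −2.50 at 24 h, with the members' share in tops at 2.35% and 3.11% and in bottoms at 5.84% and 14.2%. LHCA1 had means of 791 and 988 at these times in separated tops and of 1844 and 4907 in separated bottoms. The median difference went on to −4.02 by 48 h, −5.75 by 72 h and −6.15 by 120 h, then to −4.28 by 168 h and −2.99 by 240 h. From 24 to 120 h, in a comparison added after the data were seen, all 43 members were called lower in separated tops (median −3.11; background 18.0%), from −1.34 ± 0.35 for PSBO2 (adjusted p = 0.080 without separated top replicate 1) to −6.21 ± 0.74 for LHCB1.4. From 120 to 240 h, 42 members were called higher (median 3.13; background 24.7%). RBCS1A went from 158 and 318 at 120 h to 2154 and 2704 at 240 h, which is still under the 19087 and 20251 of separated bottoms.

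Root markers moved over the same hours in separated tops. The summed x of 14 root marker genes, among them the endodermal CASP1 and the root hair gene COBL9, in separated tops was 6.3 at 6 h. It rose to 460.4 by 48 h, 535.3 by 72 h and 548.0 by 120 h, and stood at 193.2 by 168 h and 26.0 by 240 h. In separated bottoms the sums of all libraries lay between 2.18 and 12.9, with EXPA7, PLT1 and WOX5 at 0 throughout. Of the 14, 13 were called higher in separated tops in the middle window. Higher calls were common over all genes there: 8047 and 9036 of the 20766 genes tested were called higher at 48 and at 72 h alone. In the middle window 29.4% of all genes tested were called lower, and 61.6% of all calls were higher. Late intact libraries had root sums of 411.0 to 868.2, and the 43 genes held 11.3% to 17.3% of these libraries. Root sums in separated tops at 6 to 24 h were at most 13.2, and 42 members were called lower in the early window. The part of root cells in the low values of the photosynthesis genes was not tested. Sugar starvation genes also differed, with summed x of 506 to 1601 in early separated tops and 11202 to 26270 in early separated bottoms; their part was not tested either.

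Markers of other cell types differed as well. Of all genes tested, 31.6%, 29.4% and 30.2% were called lower in separated tops than bottoms in the 3 windows. Of all calls there, 56.1%, 61.6% and 62.0% were higher. At single times, between 5827 (6 h) and 9757 (120 h) of the 20766 genes tested were called higher in separated tops. Higher calls of a few meristem markers are therefore descriptions only. Of 7 shoot meristem markers 4 were tested, and 3 were called higher in separated tops than bottoms in each window; their sums in tops and bottoms were 46.4 and 15.1 at 6 h and 58.2 and 13.3 at 48 h, with WUS at 0 in every top library. Of 9 guard cell and stomatal lineage markers 7 were tested, and 3, 5 and 6 were called lower in separated tops in the 3 windows (2, 1 and 0 higher). Their sums were 33.5 in both tissues at 6 h, and late they ranged from 17.3 to 29.5 in tops and from 43.7 to 56.2 in bottoms. Their part in the differences of the photosynthesis genes was not tested.

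Grafting was followed by higher levels in tops from 72 h on. In the early window no member was called between grafted and separated tops (limma), and none passed an unadjusted p under 0.05 either; the median difference was 0.11, and 0.0337% of all genes were called higher. In the middle window 41 members were called higher (median 1.60; background 8.29%), but without the 72 h libraries 3 were called: at 48 h alone the median was 1.00 with 3 called (background 0.246%) and 41 at an unadjusted p under 0.05, and at 72 h it was 2.22 with 42 called (8.46%). In the late window all 43 were called higher (median 2.28; background 19.5%). The difference was largest at 120 h, with a median of 3.96 and 43 called (19.6%), was 2.36 with 42 called at 168 h (11.9%), and was 0.53 with 1 called at 240 h (2.77%), when separated tops had come back in part.

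The late values show how far grafted tops stood above separated ones. LHCA1 ranged from 1454 to 1884 (median 1668) in grafted tops and from 68.9 to 1104 (330) in separated tops, without overlap (2.38 ± 0.20, adjusted p = 8.55e-14). RBCS1A ranged from 2442 to 3815 (3586) against 158 to 2704 (971), where the highest separated library reached into the grafted range (2.09 ± 0.21, adjusted p = 1.18e-11). RCA ranged from 4282 to 5788 (4709) against 239 to 4391 (1603), with an overlap of the same kind (1.95 ± 0.18). Over the members, 31 did not overlap in the late window and 33 in the middle window, a count not made over all genes. LHCB2.3 had the highest difference of all 20766 genes in the late window, 4.2 ± 0.32, with 31.6 to 102 in grafted tops and 0.566 to 6.55 in separated tops. The smallest called differences were those of LHCB4.3 (0.67 ± 0.14) and PSBO2 (1.58 ± 0.20), while PSAO rose by 2.28 ± 0.20, PSBR by 1.86 ± 0.15, LHCB1.5 by 1.78 ± 0.21 and RBCS2B by 2.66 ± 0.27.

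The gap between grafted tops and their bottoms was smaller from 120 h on, but the medians stayed negative at every time. With 2 libraries a group, a missing call at a single time does not show equal levels. The median top-minus-bottom difference in grafted plants was −1.78 at 6 h and −1.85 at 72 h, then −0.83 at 120 h with 12 members called lower (background 4.62%), −0.61 at 168 h and −0.37 at 240 h. No member was called at 168 h (background 2.46%) or at 240 h (1.70%) in the limma fit, and 18 and 0 were lower at an unadjusted p under 0.05. By window, 42 members were called lower early (median −1.68; background 27.0%), 42 in the middle window (−1.92; 19.5%) and 36 late (−0.58; 11.2%); the late count was 6 without grafted top replicate 1, 4 without grafted bottom replicate 2, 4 without the 120 h libraries, 16 without those at 168 h and 7 under quantile normalisation. From 72 to 120 h, in a comparison added after the data were seen, 39 members rose in grafted tops (median 1.41; background 9.55%), but 1 was called without grafted top replicate 2. That library was the lower one at 72 h: RCA had 1665 and 1100 there and 4282 and 4773 at 120 h.

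Grafted bottoms, for their part, came to stand lower than separated bottoms. Against separated bottoms, grafted bottoms had 1 member called lower in the early window (RBCS1B, −0.66 ± 0.23; background 17.1%), 42 in the middle window (median −1.41; background 30.5%) and 42 late (−1.64; 34.6%), and the early count was 3 with replicate numbers as a block, 14 without the 6 h libraries, 6 without either separated top replicate and 0 without any 1 bottom replicate of either kind. At 24 h alone, 10 members were called lower with a median of −0.70 (background 12.6%), and at 48 h the median was −1.10. RCA ranged from 6578 to 8740 (median 6911) in late grafted bottoms and from 18520 to 29595 (25836) in separated bottoms, without overlap. All 42 members other than LHCB4.3 were without overlap in the middle and in the late window, a count not made over all genes. From 24 to 240 h, in a comparison added after the data were seen, 31 members fell in grafted bottoms (median −0.99; background 20.2%), with 4 called when grafted bottom replicate 1 was left out, and LHCB1.4 fell by 6.20 ± 0.74. Under quantile normalisation, which forces the upper end of all libraries to 1 level, the medians against separated bottoms were 0.13, −0.25 and −0.40, and 5 and 20 members were called lower in the middle and late windows.

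Marker sums also differed between these bottoms. Root marker sums in grafted and separated bottoms were 46.0 and 4.05 at 24 h, 403 and 3.68 at 48 h, 826 and 5.06 at 72 h and 548 and 3.08 at 120 h, and then 249.9 and 8.13 at 168 h and 43.8 and 9.47 at 240 h. Of the 14 root markers, 2, 6 and 7 were called higher in grafted bottoms in the 3 windows and none lower, and RHD6 and EXPA7 were at 0 in every grafted bottom library. Of all genes tested, 17.1%, 30.5% and 34.6% were called lower in these windows. Higher calls were about as many, at 50.5%, 49.6% and 50.7% of all calls. The median difference of the 43 genes was −1.69 at 72 h and −2.10 at 240 h. All 7 guard cell and stomatal lineage markers tested were called lower in late grafted bottoms, with sums of 15.5 to 22.8 against 43.7 to 56.2. Shoot meristem sums were 40.5 to 57.4 against 9.79 to 18.3, and 2 of the 4 tested were called higher and 1 lower. Their part was not tested.

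Against intact tissue the 4 cut tissues differed in how many members were lower and by how much. The early count of grafted bottoms, 14 of 43, is near the share of all genes given beside it. It is not read as a result about the members. Separated tops had 42, 43 and 42 members called lower in the 3 windows (medians −2.18, −4.55 and −3.85; backgrounds 30.8%, 27.1% and 26.7%). Grafted tops had 42 called lower in each (−2.11, −2.85 and −1.64; 30.8%, 26.8% and 24.7%). Grafted bottoms had 14, 41 and 42 (−0.29, −0.95 and −1.01; 28.4%, 26.5% and 28.2%), and the first of these counts was 5 without the 24 h libraries, 7 without the 6 h libraries, 6 and 7 without intact replicates 1 and 2 and 5 without grafted bottom replicate 2. The middle count was 25 without intact replicate 1 and 24 without the 72 h libraries, the early count was 9 with median-of-ratios scaling, and under quantile normalisation the middle and late counts were 10 and 18.

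Separated bottoms were the one cut tissue that came to lie above intact tissue, and by little. They started low: RCA had 2885 and 3781 at 6 h against 5107 and 5345 in intact tissue, and from 6 to 24 h, in a comparison added after the data were seen, 41 members rose (median 1.41; background 16.5%), and 16 were called without separated bottom replicate 1. In the early window 5 members were called lower (background 30.4%) and PSAN higher (0.44 ± 0.18; 24.3%), a call lost without any 1 intact or separated bottom replicate; without the 6 h libraries 1 was lower, and leaving out a library gave 2 to 9. The early count lower was 18 with column sums set equal, with or without the members, 16 under quantile normalisation, 2 with median-of-ratios scaling and 10 when the groups compared were fitted alone. In the middle window 21 members were called higher (median 0.53; background 27.8%) and in the late window 29 (0.62; 32.4%). With column sums set equal these counts were 4 and 18, and with quantile normalisation 0 and 5, with medians of −0.05 and 0.00, so the direction depends on the scaling. The middle count was 6 without intact replicate 2, 7 and 12 without separated bottom replicates 1 and 2, and 3 without the 72 h libraries; the late count was 19 without those at 240 h.

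By class, the 29 late calls of separated bottoms above intact tissue, whose number depends on the scaling as given above, were spread as follows. All 5 Rubisco genes were called higher (median 1.01), among them RBCS3B (1.31 ± 0.22) and RCA (1.01 ± 0.18), as were 17 of 20 photosystem genes, PSBO2 with 1.3 ± 0.20, and 7 of 18 antenna genes. RCA ranged from 18520 to 29595 (median 25836) in late separated bottoms and from 10442 to 15234 (12062) in intact tissue, without overlap. The largest antenna differences were those of LHCB1.4 (2.35 ± 0.43) and LHCB2.3 (1.54 ± 0.32), in which intact tissue itself declined with time. LHCB4.3 was the 1 member called lower. The differences between classes were not tested.

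Whether the plant was grafted or left apart changed the top-minus-bottom difference. In the interaction contrast, 42 members were called higher in the middle window (median 2.97; background 23.1%) and 42 late (3.84; 28.0%), and RBCS1B alone early (0.90 ± 0.33; 10.4%), with 2 called when replicate numbers were a block, 10 without the 6 h libraries, 0 to 3 when a library was left out, and 0 with column sums set equal or under quantile normalisation. By time the median was −0.31 at 6 h, then 0.26 at 12 h, and 0.94 at 24 h, when 2 members were called (background 5.91%). From 48 h on 42 were called at each time, with medians of 2.11 (48 h), 3.88 (72 h), 5.27 (120 h), 3.69 (168 h) and 2.62 (240 h), beside backgrounds of 12.9%, 21.1%, 24.2%, 20.6% and 19.3%. LHCB2.3 had the highest late value of all 20766 genes at 7.36 ± 0.45. The all-gene median was −0.12 in the middle and −0.18 in the late window.

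**Figure D4:**
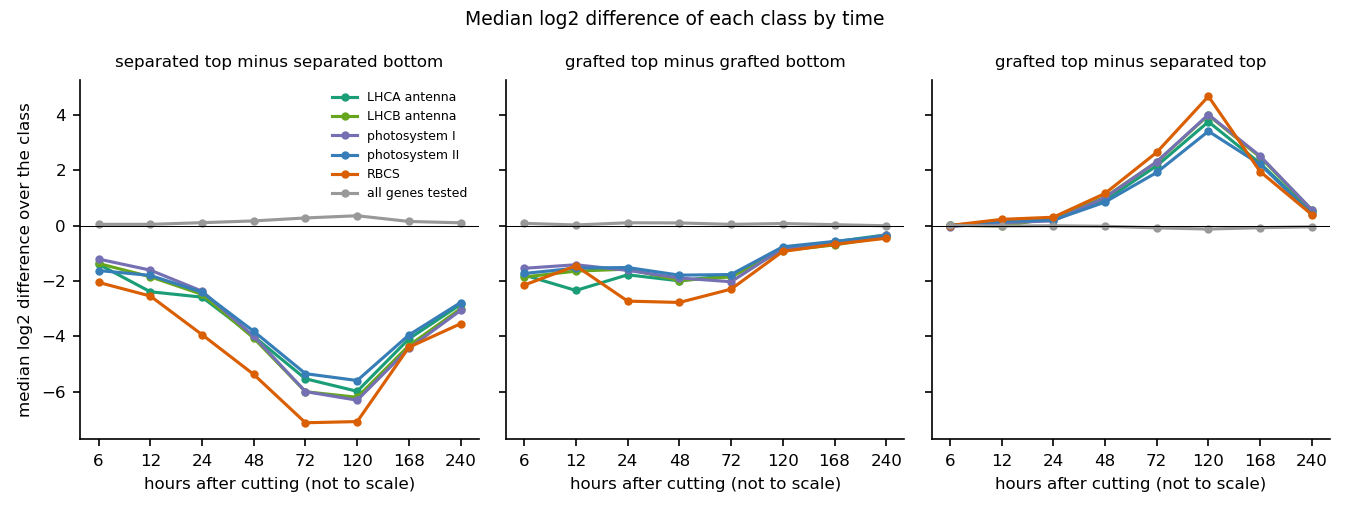
Median log2 difference over each class (y axis) at each time (x axis, hours, not to scale) for separated top minus bottom, grafted top minus bottom and grafted minus separated top. The median of the RBCS genes in separated plants reaches −7.12 at 72 h, and all classes approach 0 in grafted plants by 240 h.

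The distances of the antenna and of the RBCS genes from the photosystem genes lay outside the range of all other times at 12 h, in each of the 5 conditions. In separated plants the median top-minus-bottom difference of the RBCS genes was −2.05 (6 h), −3.94 (24 h), −5.38 (48 h), −7.12 (72 h) and −7.08 (120 h), and was lower than the median over all 43 members at each of these times. Read as mean log2(x + 1) of the class minus that of the photosystem genes, RBCS stood at 1.99 to 2.90 in the 5 conditions at 12 h, at 0.91 to 1.47 in intact tissue other than at 12 h, at 0.11 to 0.30 in separated tops from 24 to 120 h, and at 1.46 there at 168 h. In grafted tops it stood at 0.19 (24 h), 0.33 (48 h), 0.74 (72 h) and 1.28 (120 h), so that the distance came into the range of intact tissue by 120 h in grafted tops and by 168 h in separated tops. These distances also hold the lengths of the genes, so only their change is read, and they were not tested.

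The same distance for the antenna was −1.60 to −0.89 at 12 h, and it was larger at 24 h than at 6 h and smaller at 240 h than at 24 h in every condition. At 6, 24 and 240 h it was 0.74, 0.86 and 0.39 in intact tissue, which had 1.04 at 0 h. It was 0.29, 0.70 and 0.01 in separated tops and 0.36, 0.70 and 0.17 in grafted tops. In separated bottoms it was 0.44, 0.72 and 0.28, and in grafted bottoms 0.55, 0.75 and 0.20. RCA stood further above the photosystem mean at 240 h than at 6 h in every condition, by 3.09 and 1.90 in intact tissue, 3.26 and 0.99 in separated tops, 3.31 and 1.07 in grafted tops, 3.37 and 2.03 in separated bottoms and 3.55 and 1.93 in grafted bottoms. Between these times its distance was not a steady climb: it was 3.72 at 168 h in separated tops, 3.12 at 24 h and 3.07 at 168 h in separated bottoms, and 3.12 at 24 h and 2.75 at 120 h in grafted bottoms.

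LHCB1.4 and LHCB2.3, both trimer proteins, stood at the ends of several rankings. LHCB1.4 declined with age in intact tissue, from 7276 and 7427 at 0 h to 220 and 147 at 240 h, a difference of −5.35 ± 0.74 (adjusted p = 6.23e-08), and LHCB2.3 from 967 and 962 to 273 and 150 (−2.25 ± 0.55; adjusted p = 0.093 without intact replicate 2). These were among 8 members called lower at 240 h (background 19.8%; 13 with replicate numbers as a block over all tissues, 1 without intact replicate 2, 3 without intact replicate 1 and 15 without either separated top replicate). LHCB1.4 was also the lowest of all genes in the middle window of grafted tops against grafted bottoms (−5.76 ± 0.52) and against intact tissue (−6.83 ± 0.52). It did not pass the test between grafted and separated tops in the middle window (1.09 ± 0.52, adjusted p = 0.134).

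LHCB4.3 stood apart from the other 42. Its x lay between 5.91 and 37.5 in all 82 libraries, and over the 41 groups its log2 level correlated with the mean of the other members at r of −0.31, where the others had 0.788 for LHCB2.1 to 0.995 for LHCB5. These points share libraries and depth, so r is a description. It was higher in separated tops than bottoms early (0.44 ± 0.14) and in the middle window (0.43 ± 0.17; −0.19 without the 48 h libraries), with 0.25 ± 0.14 late (adjusted p = 0.0915; −0.29 under quantile normalisation). In grafted plants it was higher in tops early (0.41 ± 0.14) and in the middle window (0.73 ± 0.17), and it was higher in late grafted than separated bottoms (0.56 ± 0.14). Each of these calls rests on single libraries or times, since the adjusted p was 0.135 without 24 h for the first, 0.199 without separated bottom replicate 1 for the second, 0.083 without grafted top replicate 1 for the early and 0.260 without 48 h for the middle grafted comparison, and 0.062 without 120 h for the bottoms. The 12 h calls in cut tissue likewise gave adjusted p of 0.093, 0.058 and 0.119 without separated top replicate 2, grafted top replicate 2 and grafted bottom replicate 2. Like the other members it fell from 24 to 120 h in separated tops (−1.13 ± 0.23).

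**Figure D5:**
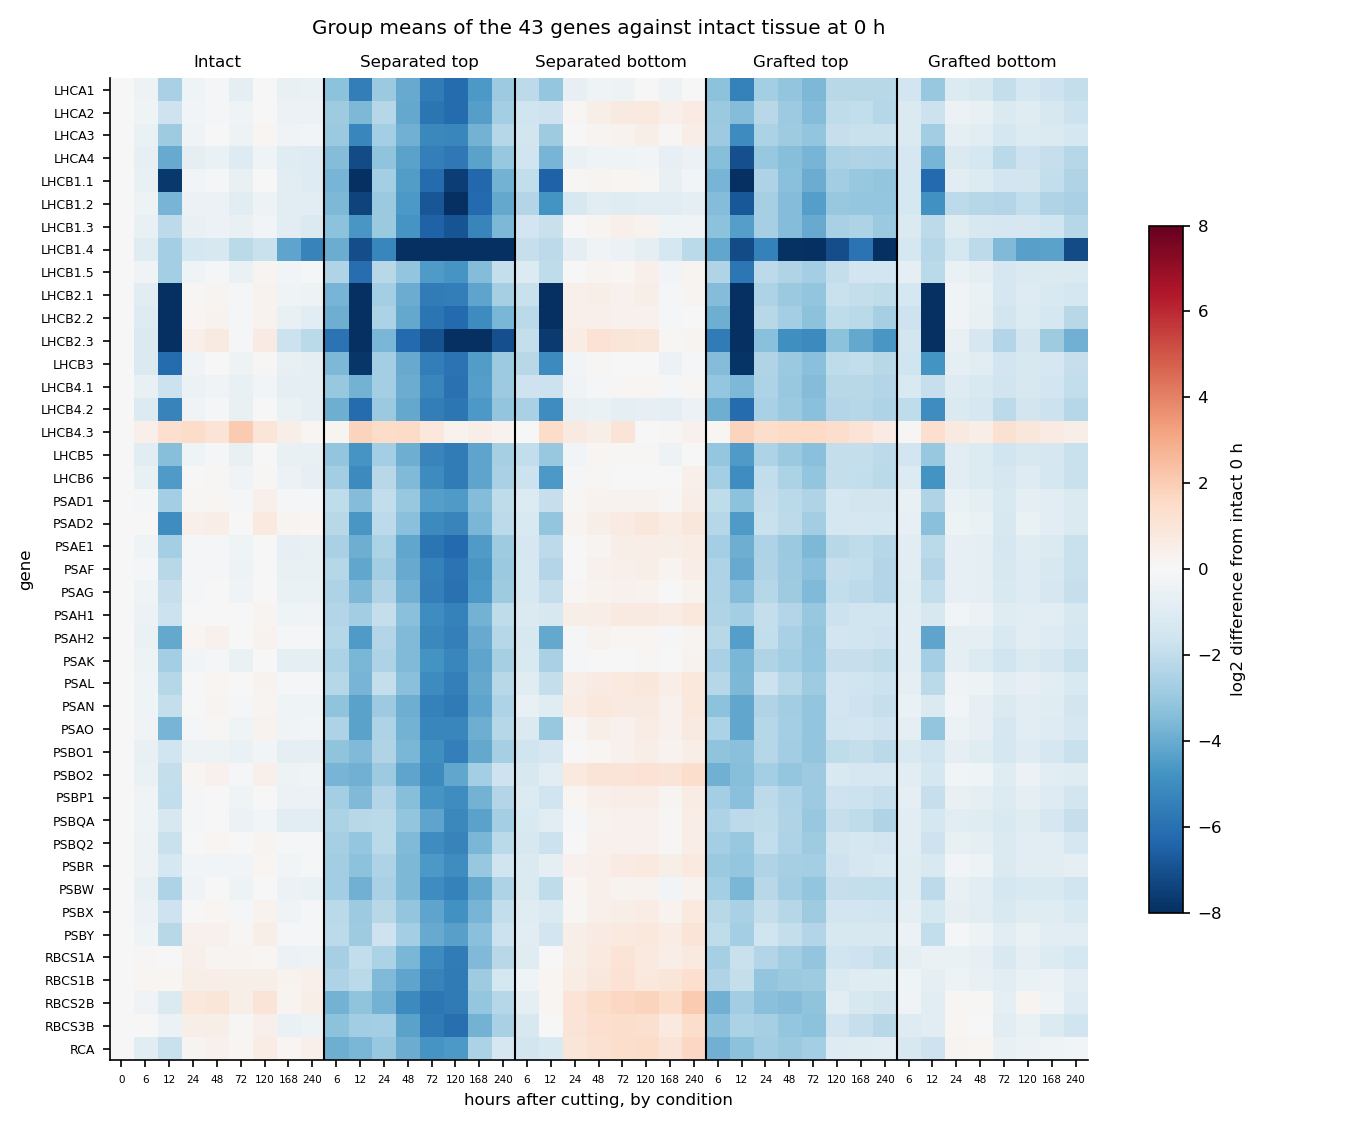
Log2 difference of each group mean from intact tissue at 0 h (colour, saturating at 8 in both directions) for the 43 genes (rows) in the 41 groups (columns, by condition and hours). Separated tops at 72 and 120 h are the lowest block, and LHCB4.3 does not follow it.

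The lowest group mean fell in separated tops at 120 h for 30 members, at 72 h for 4 and at 12 h for 2, in grafted tops at 12 h for 6, and in separated bottoms at 120 h for LHCB4.3. The highest fell in separated bottoms for 35 members, 19 of them at 240 h, and in intact tissue for 8, 5 of them at 0 h.

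Ratios within pairs of paralogs were compared between tops and bottoms by exact two-sided permutation tests within times, with 28 tests and a smallest possible p of 0.00926; 18 passed after Benjamini-Hochberg adjustment. PSBO1 and PSBO2 encode the manganese-stabilising protein, and the log2 ratio of PSBO1 to PSBO2 was 2.63 ± 0.15 (SD, n = 6) in early separated tops and 1.65 ± 0.25 in bottoms, a difference of 0.97 (exact permutation, adjusted p = 0.0162). Late, it was 0.92 ± 0.20 against 1.42 ± 0.06, a difference of −0.50 with an exact adjusted p of 0.0162, so that the sign of the difference between tissues turned; grafted plants had 0.74 early (exact permutation, adjusted p = 0.0162) and −0.11 late (0.0972). The ratio of LHCB1.3 to LHCB1.4 was higher in tops by 1.44 early and 3.29 late in separated plants and by 1.99 early in grafted ones, each with an exact adjusted p of 0.0162, and by 0.72 in late grafted plants (exact adjusted p = 0.0864).

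Among the photosystem I pairs, PSAD1 to PSAD2 was higher by 0.89 in late separated tops (exact adjusted p = 0.0162) and by 0.08 early (0.663), and grafted plants had 0.16 early (0.0902) and −0.004 late (0.954). For PSAH1 to PSAH2 the difference was −0.46 early and −0.38 late in separated plants and −0.68 early in grafted plants (each with an exact adjusted p of 0.0162), and −0.13 in late grafted plants (0.0648). The pairs were not tested against each other. The ratio of LHCB4.3 to the mean of LHCB4.1 and LHCB4.2 was higher in tops in all 4 comparisons, by 2.22 and 4.47 in separated and by 1.98 and 0.96 in grafted plants (exact adjusted p = 0.0162). As LHCB4.3 itself differed little between tops and bottoms, this ratio mostly restates the lower levels of LHCB4.1 and LHCB4.2 in tops. It is not a separate result. RBCS1A to RBCS1B was higher by 0.61 in early separated tops (exact adjusted p = 0.0162) and differed by −0.06 late (0.663), a value that was 0.81 under quantile normalisation. Whether shared reads contribute to these ratios was not tested.

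Other genes of photosynthesis moved with the 43. In late separated tops against bottoms, all 16 Calvin cycle genes (median −4.04; RPE −3.81 ± 0.11), all 12 genes of electron carriers and ATP synthase (−3.80; PGR5 −3.35 ± 0.10), all 14 tested of 15 genes of chlorophyll synthesis (−3.65; HEMA1 −4.2 ± 0.15) and 8 of 9 other photosystem subunits (−3.84) were called lower, beside the 30.2% of all genes. Of the chloroplast-encoded partners, which poly(A) selection catches in part only, 2 of 11 were called lower early (median −0.78; background 31.6%) and 11 of 11 in the middle window (−4.04) and late (−3.83). Of 16 regulators, 14 were called lower late, among them the plastid sigma factors SIG2 (−3.26 ± 0.09) and SIG6 (−3.35 ± 0.11), and PIF3, which represses greening in the dark, was called higher.

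The same lists rose in late grafted tops against separated tops, with 15 of 16 Calvin cycle genes (median 1.74), 12 of 12 carriers and ATP synthase genes (1.72), 13 of 14 chlorophyll synthesis genes (1.38), 8 of 11 chloroplast-encoded partners (1.87) and 15 of 16 regulators (1.2), among them GLK2 (1.42 ± 0.13), an activator of antenna genes; 19.5% of all genes were called higher there. In the middle window 12 of 16 Calvin cycle genes were called higher and 0 of 11 chloroplast-encoded partners (limma; 0 at an unadjusted p under 0.05; median 0.22). Clock genes were 3 higher and 2 lower of 10 late. Late, root markers went the other way, with 9 of 14 called lower and 1 higher in late grafted tops (median −1.28), and sums of 54.2 to 206.2 against 25.3 to 590.2 in separated tops, although at 240 h the mean sum was 59.2 in grafted and 26.0 in separated tops. In the middle window 7 of 14 were called lower and none higher (median −0.52), while the sums were 486.9 and 569.4 in grafted tops and 460.4 and 535.3 in separated tops at 48 and 72 h. Most calls over all genes were lower in grafted than separated tops as well, with 36.8% higher in the middle window and 39.5% late. The part of root cells in the difference was not tested.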

How the data were processed

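The labels describe 82 stranded poly(A) libraries of hypocotyl tissue, 2 independent biological replicates in each of 41 groups. Trimming and mapping tools named in the submitters' processing notes are cutadapt 1.8.1 and Bowtie2, with TAIR10; neither they nor the labels give the counter, the scaling method or whether strand was used. The values the authors deposited are treated as a score: normalised by library, in the second table also by gene length, and rounded to whole numbers. Column sums were 10.1 to 19.7 M; the 75th percentile was between 373 and 398. Values of the first table times 1 constant give x. The spacing of low values gave a depth estimate in 76 libraries; rounding kept most genes from being turned back into whole reads, so no count test was run. These are PCR reads without identifiers of molecules, so they overstate how many molecules were seen.

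The test covered genes reaching x of 1 in 2 or more libraries, on log2(x + 1), by limma 3.58.1 (R 4.3.3), with 1 mean per group, 41 residual degrees of freedom, eBayes with a trend and Benjamini-Hochberg adjustment over 20766 genes. The pseudocount of 1 makes folds of low genes too small. On simulated data for separated top minus bottom, early, with 20766 genes, 42 of 67 genes changed by 0.5 on the log2 scale were called, and 63 of 67 changed by 1. Neither the main fit nor the permutation tests paired libraries by replicate number, because the labels do not state such a pairing. A block of replicate numbers was used only in alternatives. Between grafted tops and grafted bottoms, deviations from the group means of equal numbers had correlations of 0.237 to 0.707 over the 8 times. For separated tops and bottoms they were 0.00272 to 0.360.

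All 43 members may be named; values by library go to the highest member per length of each class, to the members with the largest and smallest differences, and to exceptions. Up to 3 genes of each other list are named, by adjusted p. Members and lists were chosen with earlier results of these data known, so their counts are read against the percentage of all genes called. Promoters are RefSeq gene starts on TAIR10.1; all 43 members matched.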

Additional observations from a re-analysis of the deposited data

Results flagged for a closer look

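The difference between top and bottom changed between grafted and separated plants, by the interaction contrast of the limma fit, for 42 members in the middle window and 42 in the late window. Among these, LHCB2.3 had 7.36 ± 0.45 and LHCB1.4 had 6.82 ± 0.60 late, both higher in each late grafted-top library than in any separated-top library at the same time except for LHCB1.4 at 240 h. Bottoms enter these values too, as both genes had lower means in grafted than in separated bottoms at each late time. At 240 h these means were 65.3 and 1135 for LHCB2.3 and 49.6 and 1674 for LHCB1.4. In the early window RBCS1B alone was called, with 0.90 ± 0.33 (adjusted p = 0.041), a call lost without either intact, separated bottom or grafted bottom replicate and without the 12 or 24 h libraries. Groups hold 2 libraries, so no library was compared with its own group for distance.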

How the results depend on the processing

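The 38 counts of members were recomputed in 946 alternatives, of which 852 stayed within 1.5 times the reported count; the 2125 alternatives for single members held 2 reversals, both for LHCB4.3 and given with it. The low values of separated tops, the late rise in grafted tops and the late and middle interaction counts stayed within 1.5 times under every scaling, pseudocount, filter, left-out library and left-out time tried. Under quantile normalisation the counts were 5 (middle) and 20 (late) for grafted below separated bottoms, 10 and 18 for grafted bottoms below intact, 0 and 5 for separated bottoms above intact, 7 for late grafted tops below bottoms, 2 for intact 240 h below 0 h, 16 for early separated bottoms below intact, and 0 for the early difference between bottoms and the early interaction. With column sums set equal, with or without the members, they were 4 and 4 (middle) and 18 and 19 (late) for separated bottoms above intact, 18 and 18 for early separated bottoms below intact, 0 and 0 for both early comparisons of grafted with separated plants and, with the members, 5 for intact 240 h. Median of ratios gave 9 for early grafted bottoms below intact and 2 for separated bottoms below intact; no filter gave 0 for the early interaction, and eBayes without a trend gave 2 for the early difference between bottoms.

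Without single times, the early counts without 6, 12 and 24 h were 14, 0 and 0 for grafted below separated bottoms and 10, 0 and 0 for the interaction; without 6 h they were 7 for grafted and 1 for separated bottoms below intact, and without 24 h 5 for grafted bottoms. Without 72 h, the middle counts were 3 for grafted above separated tops, 24 for grafted bottoms below intact and 3 for separated bottoms above intact. The late counts were 4 without 120 h and 16 without 168 h for grafted tops below bottoms, and 19 without 240 h for separated bottoms above intact. A fit on the groups compared alone gave 2 and 3 for the early difference between bottoms and the early interaction, 10 for early separated bottoms below intact and 3 for intact 240 h. Leaving out 1 replicate gave 0 to 6 for the early difference between bottoms, 0 to 3 for the early interaction, 5 to 18 and 2 to 9 for early grafted and separated bottoms below intact, 25 to 43 and 6 to 30 for middle grafted bottoms below and separated bottoms above intact, 4 to 41 for late grafted tops below bottoms and 1 to 15 for intact 240 h. The cause of these shifts was not tested.

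With replicate numbers as a block, within a time and kind of plant or over all tissues of a time, the early difference between bottoms gave 3 and 3 members, the early interaction 2 and 2, and intact 240 h below 0 h 13 over all tissues; the block moved no other count of members beyond 1.5 times. For paralog ratios, quantile normalisation gave 0.81 for RBCS1A to RBCS1B in late separated plants, where the reported value was −0.06, 0.37 for PSAD1 to PSAD2 in early grafted plants, −0.26 and −0.15 for PSAH1 to PSAH2 in late separated and grafted plants, −0.38 for PSBO1 to PSBO2 in late separated plants and 0.037 for PSBQA to PSBQ2 in early separated plants. The values −0.19 without 48 h and −0.29 under quantile normalisation are the 2 of LHCB4.3.

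Scaling also moved the background: with column sums set equal, the all-gene median of separated top minus bottom went from 0.26 to 0.85 in the middle and from 0.25 to 0.82 in the late window, and the share of calls that were higher went from 62.0% to 80.5% late. Members with few reads in separated tops limit precision most: the lowest estimate in any library was 4.35 reads for LHCB2.3 and 6.04 for LHCB1.4.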
